A study of Drosophila melanogaster with 30 samples.

Results

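The proximal end of the Drosophila melanogaster X chromosome was described from 20 Mb to its last base at position 23542271 (dm6, centromere on the right). Members were the 100 kb Repli-seq windows, placed every 10 kb, whose midpoint was 20 Mb or more: 360 of the 13256 windows of 2L, 2R, 3L, 3R and X in each female table and 323 of 13161 in the male table. The span also held 143 of 11505 RNA entries in the authors' deposited male table and 138 of 10775 in that of females. All members lay on one stretch of one chromosome, and neighbouring windows shared all but 10 kb, so they are not independent of each other.

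The samples were wing imaginal discs, the larval epithelia that form the adult wing, of wandering third-instar larvae. H4K16R, H3K9R and HWT larvae all lacked both copies of the endogenous histone cluster (ΔHisC), carried twi-GAL4 and UAS-2xEYFP, by whose fluorescence they were picked, and lived on a transgenic histone array. In H4K16R the array codes for arginine in place of lysine 16 of histone H4, in H3K9R for arginine in place of lysine 9 of histone H3, and in HWT for unchanged histones. The yw females were a further strain, for which the labels name no array. RNA was sequenced from male and female discs of H4K16R and HWT, in 3 libraries for each group. Repli-seq was done on H4K16R males and females, H3K9R females, HWT males and females, and yw females, with 2 S-phase and 1 G1 library of sorted nuclei per group. A timing value is the ratio of S-phase to G1 signal, given here as log2, so that a higher value means earlier replication; no header names the scale, and base 2 was inferred from the spread of the values. The deposited tables held 1 timing value per group and window, so timing has no SD and no test here; windows whose log2 values differ by 0.1 or more are called shifted. Female HWT timing was deposited in 2 tables, beside H4K16R (profile 1) and beside H3K9R (profile 2), although the labels name 1 set of female HWT libraries. The spread between these 2 profiles is the only measure of error at hand. If both rest on that 1 set, it holds no variation between libraries. Profile 1 minus profile 2 had a median of -0.0374 over all arms, with 857 of 13255 windows above 0, so part of the spread is an even offset.

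The proximal X joins the gene-rich euchromatic arm to the repeat-rich heterochromatin beside the centromere and to the ribosomal DNA array. Pericentromeric heterochromatin carries methylated lysine 9 of histone H3, binds HP1, silences many genes placed in it and usually replicates late in S phase. Lysine 16 of histone H4 is acetylated along the male X by the MSL complex, which raises transcription of X-linked genes in males to match both X copies of females. The span also holds flamenco, a long noncoding locus that in the ovary is the source of piRNAs against retrotransposons.

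Replication was late over most of the span and alternated between early peaks and late blocks. The median timing was -0.131 in H4K16R males and -0.103 in HWT males, against 0.0387 and 0.0533 over the rest of the X. In females it was -0.173 in H4K16R, -0.109 in H3K9R, -0.119 and -0.115 in HWT (profiles 1 and 2) and -0.120 in yw, against 0.0108 to 0.0538 over the rest of the X. Windows below 0 made up 91.3% of the span in H4K16R males, 76.2% in HWT males, 93.1% in H4K16R females and 86.1% to 92.2% in the other female profiles. At the edge of the rule, the window centred on 19.99 Mb, just outside, had values between -0.189 and -0.123 in the 7 profiles, and the one centred on 20 Mb, just inside, had values between -0.194 and -0.113; neither stands at a change of level.

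From the distal end to the centromere, the mean of both female HWT profiles had its peaks at 20.21, 21.07, 21.34, 21.59, 22.51, 22.85 and 23.1 Mb. The peak at 21.07 Mb was above 0 in all 7 profiles, with 0.0561 in H4K16R males, 0.0571 in HWT males, 0.0475 in H4K16R females, 0.101 in H3K9R females, 0.0370 and 0.0871 in HWT females and 0.0130 in yw females. The peak at 20.21 Mb was below 0 in H4K16R females (-0.00972) and H3K9R females (-0.0482) and above 0 in the other 5 profiles, up to 0.102 in HWT females of profile 2. The trough at 20.84 Mb, inside the long gap junction gene shakB, had nearly the same value everywhere, from -0.232 in H4K16R males to -0.183 in HWT females of profile 2. A long late block lay between 21.7 and 22.48 Mb, with its trough at 22.39 Mb, and held the lowest window of the span in every profile but H3K9R, whose lowest was at 23.41 Mb. After it, timing returned to between -0.0574 and 0.0465 at 22.51 Mb in the 7 profiles, so the proximal X came back to near 0 on the centromere side of the block. From 23.2 Mb to the end the profiles stayed late, with medians of -0.368 in H4K16R males, -0.388 in HWT males, -0.342 in H4K16R females, -0.289 in H3K9R females, -0.317 and -0.250 in HWT females and -0.313 in yw females.

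**Figure D1:**
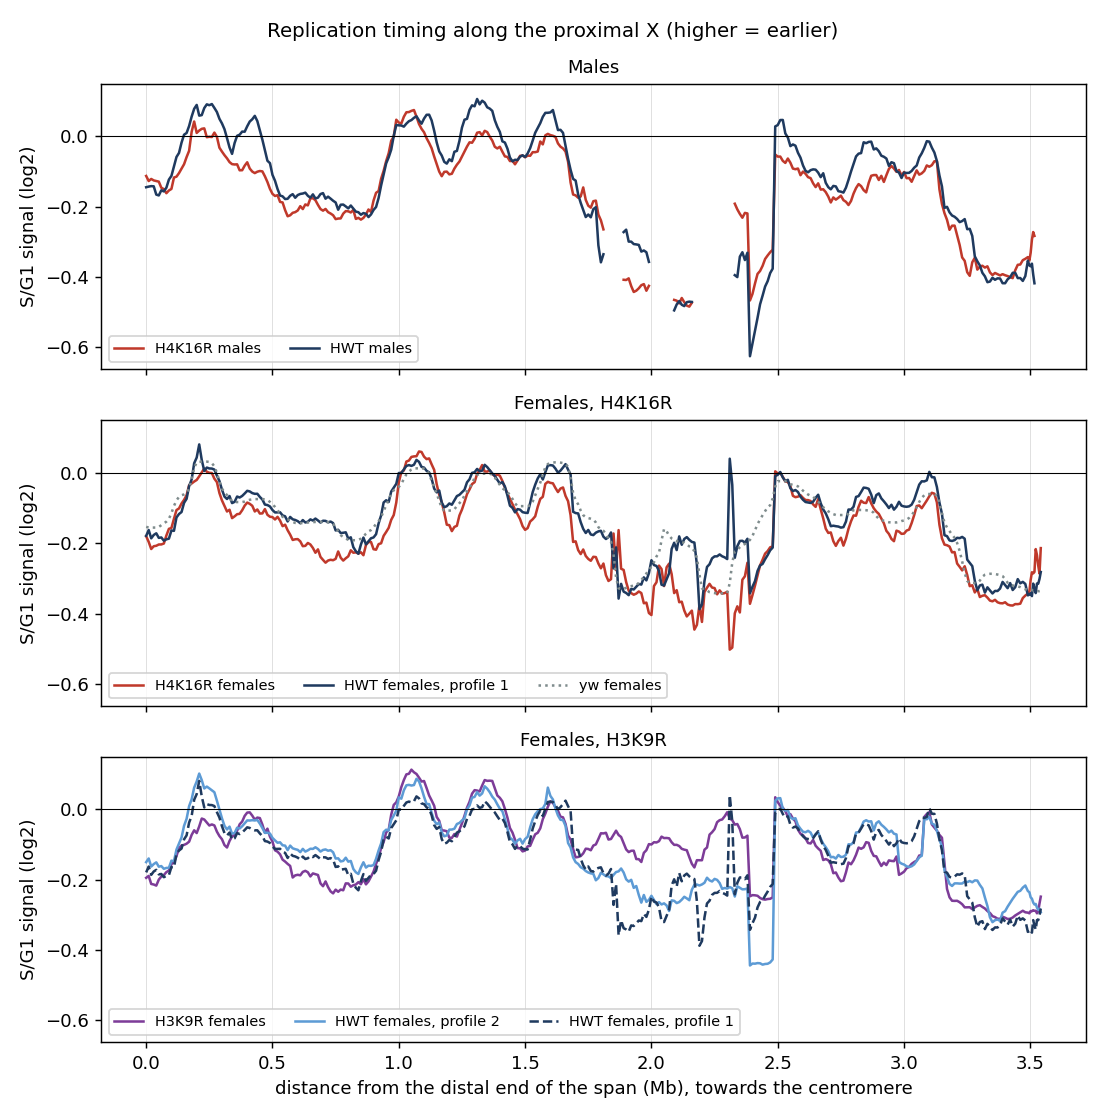
Timing (S/G1 signal, log2, 1 value per 100 kb window) against distance from 20 Mb, in males (top), in females of H4K16R, HWT and yw (middle) and in females of H3K9R and HWT (bottom). Early peaks alternate with a late block between 1.7 and 2.5 Mb, and the H3K9R line lies above both HWT lines over most of that block; gaps in the male lines are windows that the male table does not list.

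Gene density varied along the span. RefSeq (Release 6) places 279 genes in the span, 195 of them protein-coding, with 72 genes starting in 20 to 20.5 Mb and 71 in 21 to 21.5 Mb, but 13 in 21.5 to 22 Mb. The 2 longest stretches without a gene were the 352 kb from the end of lncRNA:flam to CG40813 (X:21790732-22143057) and the 246 kb from the ribosomal DNA to the last miRNA gene (X:23291730-23538214). Between the first of these and a further empty stretch of 192 kb stood a run of 21 short genes from CG40813 to CG41562 (X:22143058-22252414), 19 of them 876 bases long and spaced about 5 kb apart (median 4996 bases), in which neither RNA table had an entry. Over the windows that do not overlap, the 7 without a male RNA entry had a median timing of -0.338 in H4K16R females, -0.101 in H3K9R females and -0.248 in HWT females of profile 1. The 13 with 5 or more entries had -0.0283, -0.00765 and -0.00538 in the same order. Spearman's rho between timing and the number of male RNA entries was 0.759 in H4K16R females, 0.434 in H3K9R females and 0.775 in HWT females of profile 1 (35 windows of 1 chromosome end, which share the tables' processing; a description without a test). H3K9R had the lowest rho of the 7 profiles, and its median in windows without entries lay above that in its 15 windows with 1 to 4 entries, -0.155.

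No single border separated early from late replication. Taken as the point after which every window is below 0, the border lay at 21.62 Mb in H4K16R males against 22.54 Mb in HWT males, and at 22.52 Mb in H4K16R females and 22.53 Mb in H3K9R females against 23.11 and 22.53 Mb in HWT females and 21.68 Mb in yw females. The difference between both HWT profiles rested on one window, centred on 23.1 Mb over the RNA processing gene su(f), at 0.00297 in profile 1 and -0.0212 in profile 2. In H4K16R males the early return at 22.51 Mb stayed at -0.0574 against 0.0465 in HWT males, and so moved the border by nearly 1 Mb with a difference there of -0.104. By the largest fall over 200 kb, the border was at 23.22 Mb in H4K16R males (-0.302) against 21.7 Mb in HWT males (-0.426). It was at 23.21 Mb in H4K16R females (-0.293) and 23.2 Mb in H3K9R females (-0.265). In HWT females it was at 21.77 (-0.367) and 21.69 Mb (-0.257), and in yw females at 21.77 Mb (-0.346). This measure picks the largest of several falls. HWT males also fell from -0.0149 to -0.367 between 23.1 and 23.3 Mb, and H4K16R males from 0.00366 to -0.239 between 21.6 and 21.8 Mb. The male table lacks windows from 21.82 to 21.88 Mb, so falls to these could not be measured.

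The late block was also where the deposited values were least smooth. Between the neighbouring windows at 22.48 and 22.49 Mb, timing stepped by 0.271 in H4K16R males, 0.404 in HWT males, 0.214 in H4K16R females, 0.285 in H3K9R females, 0.203 and 0.451 in HWT females and 0.0336 in yw females, where the median step between neighbours was at most 0.0113. The yw values are means of 10 kb rows around each midpoint, so neighbours share rows and a step is spread out. The yw step is therefore not measured like the others. The male table leaves out 37 windows of the span, 32 of them centred between 21.82 and 22.32 Mb. Both female HWT profiles differed by 0.1 or more in 31 of the 360 windows (1.4% over all arms), 14 of them centred between 22 and 22.5 Mb. In HWT females of profile 1 a narrow spike reached 0.0404 at 22.31 Mb, a window with -0.221 in profile 2 and -0.313 in yw.

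H3K9R females replicated the late block earlier than HWT females. Shifts to earlier timing covered 58 of 360 windows (16.1%) and shifts to later timing 16 (4.44%), against 1.4% and 0.8% over all arms. All 58 earlier windows were centred between 21.78 and 22.48 Mb, in runs that began at 21.78 Mb with 10 windows, at 21.95 Mb with 21 and at 22.23 Mb with 26, and 1 window at 21.93 Mb. From 22 to 22.5 Mb the median was -0.0968 in H3K9R females against -0.248 in HWT females of profile 2, and every one of the 50 windows was higher in H3K9R, by 0.0102 to 0.217. The largest difference was at 22.3 Mb (X:22250001-22350000), with -0.00797 in H3K9R against -0.225 in HWT, in the gene-free stretch behind the run of short genes. H3K9R discs had no RNA libraries, so these shifts could not be set beside RNA of the same genotype.

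The earlier timing in H3K9R held against the other female profiles over most but not all of the block. Against HWT of profile 1, 29 of the 50 windows from 22 to 22.5 Mb were earlier and none later (median difference 0.119). Against yw, 25 were earlier and 6 later (median difference 0.106). Over all arms, 5.64% of windows were earlier against profile 1 and 3.72% against yw. The median differences over all arms were 0.0345 and 0.0349 in the same order. In 29 windows, centred between 21.82 and 22.38 Mb, H3K9R was earlier by at least 0.1 than all 3 other profiles at once, and no window of the span was later than all 3 by that much. Such windows were counted in the span only. From 21.78 to 22.38 Mb the median was -0.0903 in H3K9R, against -0.241 and -0.223 in HWT and -0.241 in yw. From 22.39 to 22.48 Mb it was -0.251 in H3K9R, against -0.261 in HWT of profile 1, -0.438 in HWT of profile 2 and -0.126 in yw, so the sign there depended on the profile subtracted. Of the 16 later windows of H3K9R, 12 lay distal to 20.75 Mb and 4 between 22.9 and 22.93 Mb, with the lowest difference of -0.150 at 20.21 Mb (-0.0482 in H3K9R against 0.102 in HWT of profile 2; 0.0810 in profile 1).

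**Figure D2:**
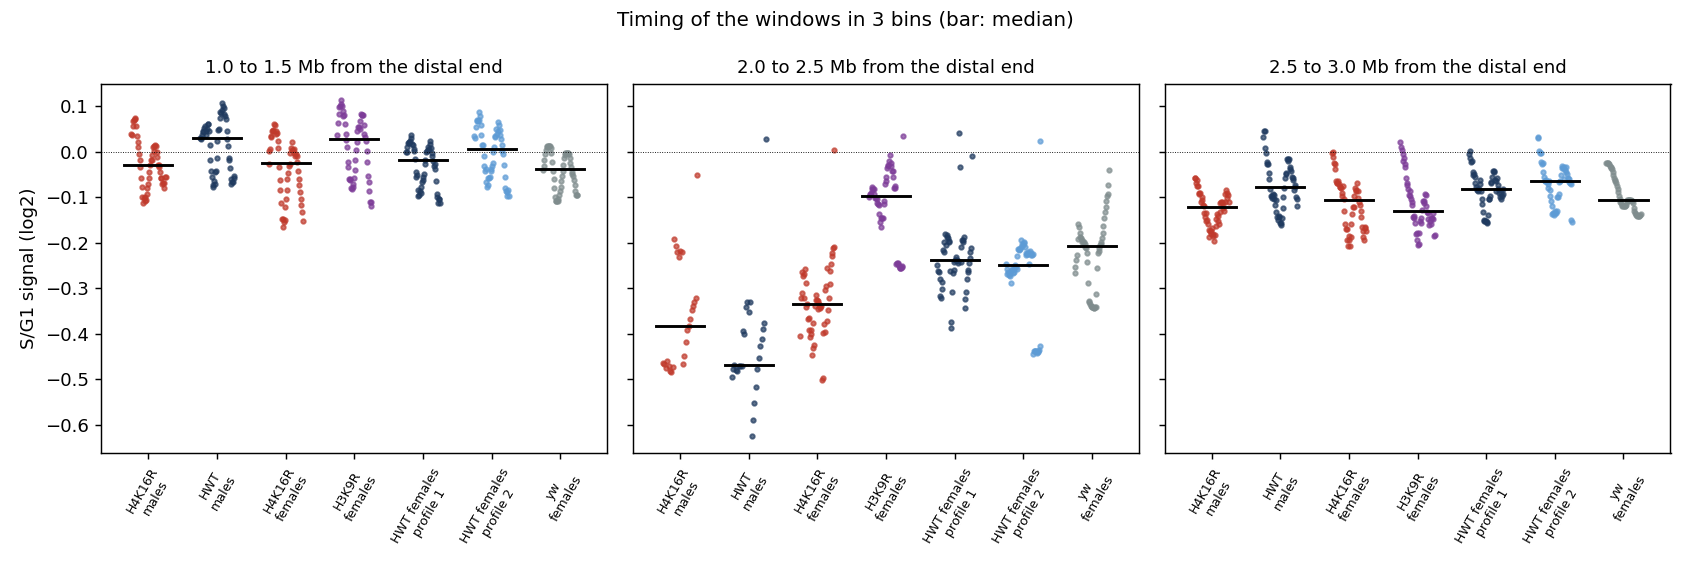
Timing (log2) of the windows in 3 bins of 0.5 Mb, by distance from 20 Mb, with 1 point per window and a bar at the median; overlapping windows are not independent. In the middle bin the median of H3K9R females (-0.0968) lies above those of the other profiles. The medians of both male groups lie lowest there (-0.383 in H4K16R, -0.468 in HWT), but rest on 25 windows against 50 in females. The outer bins differ less.

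H4K16R females replicated the span slightly later than HWT females. The median difference was -0.0379, with 33 of 360 windows later (9.17%) and 2 earlier (0.556%), against 1.95% and 0.785% over all arms. Over the rest of the X the median difference was 0.0113 and 14 of 1995 windows were later. The later windows gathered in the block that was earlier in H3K9R: 21 of the 33 were centred between 22 and 22.5 Mb, where the median was -0.334 in H4K16R against -0.239 in HWT of profile 1. The lowest difference, -0.543 at 22.31 Mb, fell on the spike of profile 1 (-0.503 in H4K16R against 0.0404 in HWT); against profile 2 it was -0.282. A further 5 later windows lay between 20.7 and 20.74 Mb, reaching -0.119, over the pair-rule transcription factor gene run (X:20690670-20697321). With HWT of profile 2 in its place, 79 windows were later (21.9%) and 8 earlier (2.22%), these 8 all between 22.41 and 22.48 Mb. Over all arms the shares against profile 2 were 6.85% and 0.505%, and the median difference was -0.0388. With yw, 49 were later (13.6%) and 4 earlier (1.11%), against 2.60% and 0.324% over all arms. In all, 23 windows were later than all 3 other profiles by at least 0.1, 14 of them between 22 and 22.5 Mb. Such windows were not counted over all arms.

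H4K16R males were later than HWT males over most of the span and earlier at the centromere side of the block. Of 323 windows, 26 were later (8.05%) and 12 earlier (3.72%), against 0.745% and 1.12% over all arms. The later windows lay in 20.37 to 20.45 Mb, at 21.29 Mb, in 21.89 to 21.98 Mb, in 22.51 to 22.52 Mb, in 22.84 to 22.86 Mb and in 23.23 to 23.26 Mb. The lowest difference was -0.163 at 20.43 Mb, with -0.104 in H4K16R males against 0.0584 in HWT males. In 22.84 to 22.86 Mb, over the gastrulation gene fog, the difference reached -0.140. Of the 12 earlier windows, 9 were centred between 22.33 and 22.42 Mb, with the highest difference of 0.203 at 22.33 Mb (-0.191 in H4K16R against -0.395 in HWT), right beside windows that the male table does not list. Of the other 3, 1 was at 21.8 Mb and 2 were at the chromosome end. In the 25 windows from 22 to 22.5 Mb that all tables list, the median difference from HWT was 0.0784 in males and -0.0956 in females (profile 1). Within the span and with profile 1, it was the only bin in which the sign differed between the sexes. Against profile 2, 8 windows from 22.41 to 22.48 Mb were earlier in H4K16R females, by 0.118 to 0.224. In males the median from 22.39 to 22.48 Mb was also higher in H4K16R, at -0.375 against -0.465 in HWT. Of all 50 female windows of the bin, 26 were later than profile 2. Over these 50 windows the female median difference was below 0 against both profiles, -0.0772 against profile 1 and -0.107 against profile 2. From 22.39 to 22.48 Mb the female median was -0.255 in H4K16R, against -0.261 in profile 1 and -0.438 in profile 2. The size of the female difference there thus depended on the profile subtracted. The difference between the sexes was not tested, as there is 1 value per group.

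**Figure D3:**
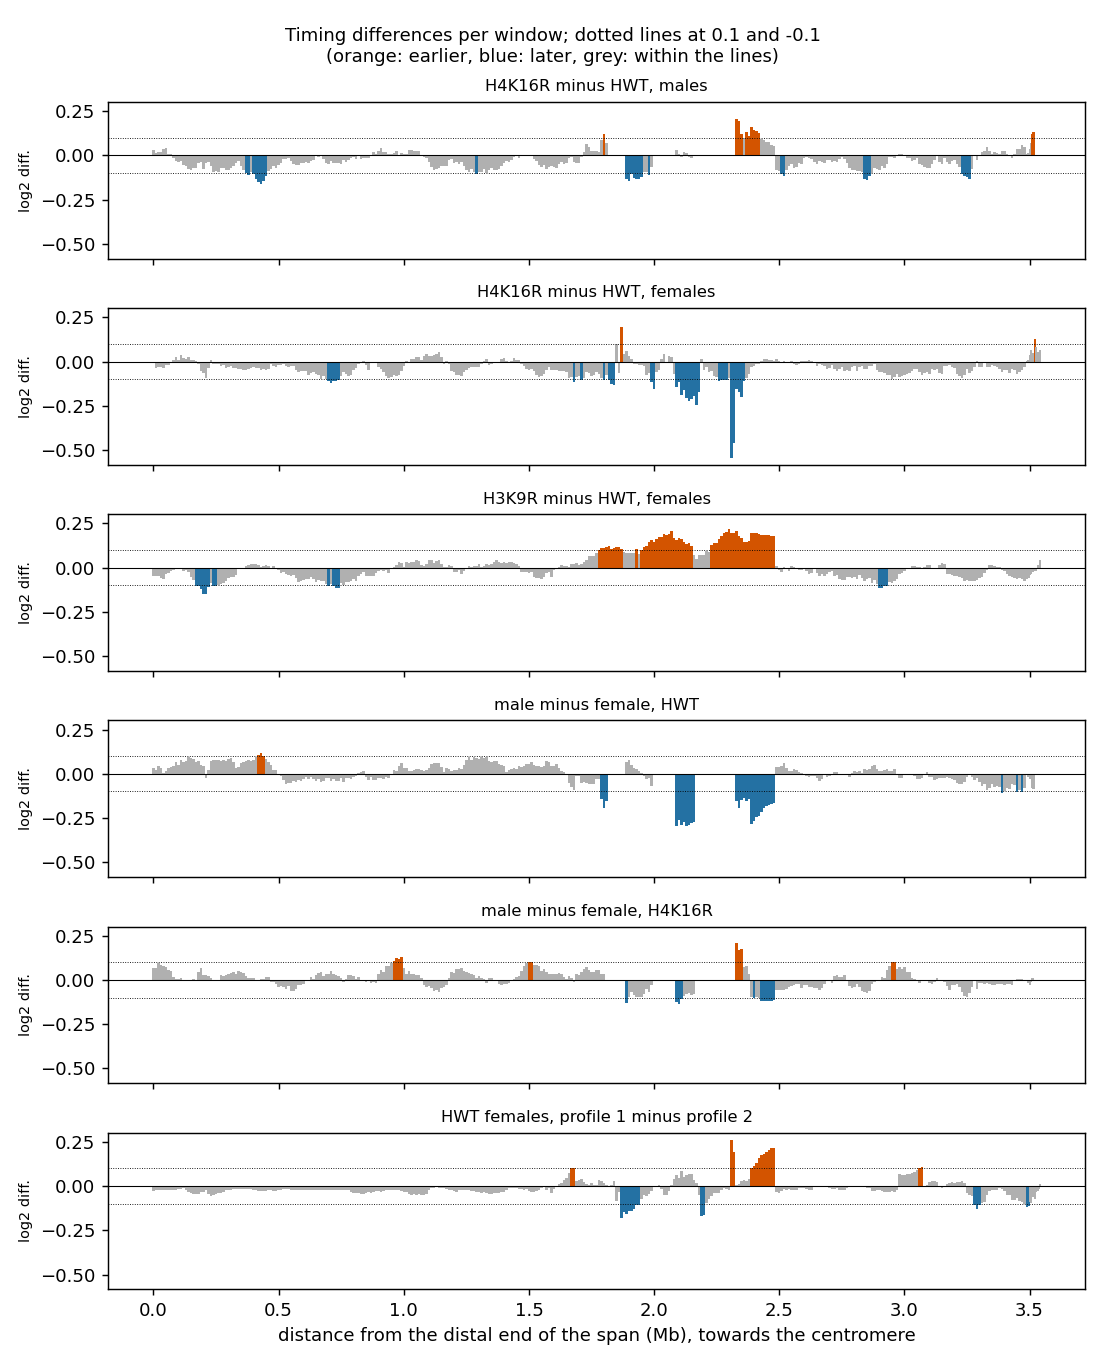
Timing differences (log2) per 100 kb window against distance from 20 Mb, first group minus second; dotted lines mark 0.1 and -0.1, with earlier windows in orange and later ones in blue. The largest orange block is H3K9R minus HWT in females, and the bottom panel shows that both deposited female HWT profiles differ by as much as 0.261 in the same stretch.

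HWT males were later than HWT females of profile 1 in the late block and earlier in some of the distal bins. In 20 to 20.5 Mb the median was 0.00478 in males against -0.0691 in females, and 49 of 50 windows were higher in males. In 21 to 21.5 Mb all 50 windows were higher in males, with medians of 0.0312 in males against -0.0188 in females. In 20.5 to 21 Mb, between these, 42 of 50 windows were lower in males (median difference -0.0274). In 22 to 22.5 Mb 24 of 25 windows were later in males by at least 0.1, with medians of -0.468 in males against -0.209 in females over the same windows. The size of this gap depended on the female profile. From 22.39 to 22.48 Mb the median was -0.465 in HWT males, against -0.261 in profile 1 and -0.438 in profile 2. With profile 2, 13.3% of the windows of the span were later in males and 0 earlier. With profile 1, shifts in the whole span were 30 later (9.29%) and 3 earlier of 323, against 6.52% and 1.18% over all arms. Over the rest of the X, 140 of 1995 windows were earlier in males and 4 later. Against profile 1, the earlier male timing of the rest of the X (median difference 0.0399) thus did not extend evenly to the centromere side. There the median difference from 22 Mb on was -0.0237, although 31 of the 50 windows from 22.5 to 23 Mb were higher in males (median difference 0.00926). Over the rest of the X the median was 0.0533 in HWT males, against 0.0108 in profile 1 and 0.0443 in profile 2. The size of that difference thus depended on the female profile as well. These levels were set across tables that were made separately.

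In H4K16R the sexes lay closer together in some bins and farther apart in others. The median from 20 to 20.5 Mb was -0.0917 in males against -0.104 in females, with a median difference per window of 0.0168. That from 21 to 21.5 Mb was -0.0295 in males against -0.0246 in females. Per window the median difference there was 0.0126, with 32 of 50 windows higher in males. In 22 to 22.5 Mb the median difference was -0.0944 in H4K16R, against -0.214 in HWT (females of profile 1) over the same 25 windows. In 21.5 to 22 Mb it was 0.0324 in H4K16R against 0.00726 in HWT, and in 22.5 to 23 Mb it was -0.0253 in H4K16R against 0.00926 in HWT. Over the span 11 windows were earlier in males (3.41%) and 11 later, against 0.327% and 0.775% over all arms. The highest difference, 0.208, was at 22.33 Mb and the lowest, -0.134, at 22.1 Mb, both inside the late block.

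HWT and yw females had similar timing outside the late block. The median difference was 0.00299, and all 7 earlier windows (0.558% over all arms) and all 14 later ones (0.89%) were centred between 22 and 22.5 Mb. The highest difference was 0.354 at 22.31 Mb, the spike of profile 1, and the lowest was -0.161 at 22.05 Mb (-0.320 in HWT against -0.159 in yw). From 20 to 22 Mb no window differed by 0.1, the range being -0.0706 to 0.0846.

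Other chromosome ends near a centromere did not all behave as the proximal X. For H3K9R minus HWT in females, the share of earlier windows was 16.1% in the proximal X, 21.97% in 3R up to 4 Mb, 3.69% in 2R up to 6 Mb, 2.55% in 2L from 22 Mb and 1.55% in 3L from 23 Mb. For H4K16R minus HWT in females, the share of later windows was 9.17% in the proximal X, 16.7% in 3R, 8.05% in 2R, 12.0% in 3L and 1.91% in 2L. For HWT males minus HWT females, it was 9.29% in the proximal X, against 75% in 3R, 36.5% in 2R, 32.2% in 3L and 22.5% in 2L. For H4K16R minus HWT, the median difference was above 0 in males and below 0 in females (profile 1) at each autosomal end. It was 0.0462 in males and -0.0603 in females in 3R, and 0.0228 and -0.0416 in 3L. In 2R it was 0.0159 and -0.0302, and in 2L 0.0321 and -0.0206. Over the whole proximal X it was -0.0335 and -0.0379. The limits of these ends were set for this comparison, and no test was run.

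RNA from the proximal X was lower in H4K16R males throughout. The male table carries log2 fold changes, read as H4K16R over HWT, and adjusted p-values for transcribed intervals. Of 143 entries in the authors' deposited male table, 65 were lower at an adjusted p under 0.05 (45.5%) and 0 were higher, against 10.3% lower and 5.35% higher over the whole table; 76 entries had an unadjusted p under 0.05, recovered from the adjusted values. The median log2 fold change was -0.53, against -0.43 over the rest of the X, where 782 of 1758 entries were lower (44.5%), and 0.08 on chromosomes 2 and 3. Of the 143 entries, 128 were below 0. The lower RNA did not fade toward the centromere: the authors' deposited male table gave medians of -0.50 from 20 to 20.5 Mb, -0.53 from 20.5 to 21 Mb and from 21 to 21.5 Mb, -0.87 from 21.5 to 22 Mb, where 16 of 19 entries lay in flamenco, -0.48 from 22 to 22.5 Mb, -0.47 from 22.5 to 23 Mb and -0.56 from 23 to 23.5 Mb. From 22 Mb on, 19 of 44 entries were lower (43.2%), and from 20 to 22 Mb 46 of 99 were (46.5%).

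**Figure D4:**
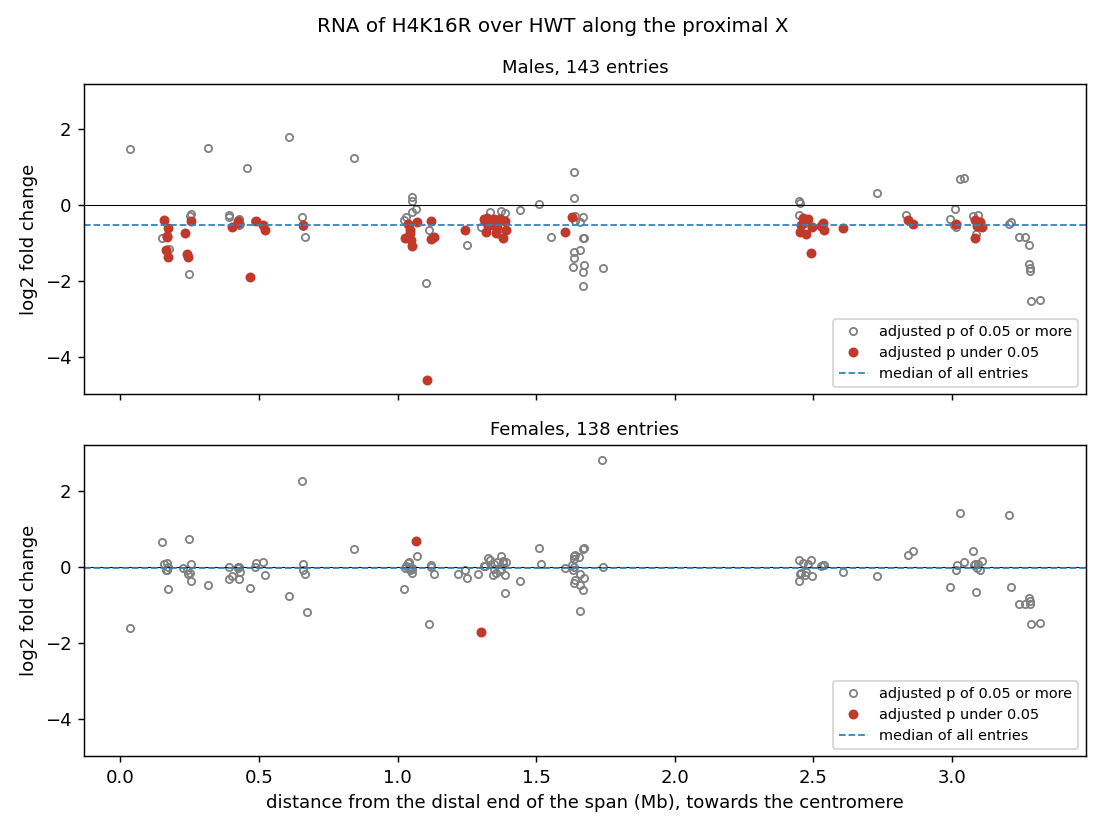
Log2 fold change of RNA, H4K16R over HWT, of each entry against distance from 20 Mb in males (top) and females (bottom), with entries of adjusted p under 0.05 filled. Male entries centre on -0.53 along the whole span and female entries on -0.04, and no entry lies over most of the late block.

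The lowest called fold changes in males were on the distal side of the late block, with the exception of lncRNA:CR43493. In the authors' deposited male table, CG1503 (X:21104695-21106369) had the lowest log2 fold change, -4.62 (adjusted p = 0.0359), and GstT3 (X:20467455-20469866), a glutathione S-transferase, fell by 1.90 (adjusted p = 0.000564). In the authors' deposited male table obst-A (X:20239855-20243209), a chitin-binding protein of the extracellular matrix, fell by 1.30 (adjusted p = 1.35e-07), while a shorter entry inside it fell by 1.38. AnxB10, an annexin that binds membranes and calcium, fell by 1.37 and Phf7, a histone reader of the male germ line, fell by 1.19, both in the authors' deposited table. Among shorter RNAs, scaRNA:MeU2-C28, a guide for modifying the U2 spliceosomal RNA, fell by 1.08 in the authors' deposited table, lncRNA:CR43493 fell by 1.26 and asRNA:CR44374 fell by 0.91. Cbs, cystathionine beta-synthase, fell by 0.91 in the authors' deposited table (adjusted p = 6.17e-06). The authors' deposited table gives no levels, so it does not show how abundant any of these RNAs was.

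Of the listed genes, 7 were called lower in males and 2 entries were not called. In the authors' deposited male table, slgA, a proline oxidase, fell by 0.86 (adjusted p = 1.79e-05), sol, a calpain-family protease needed for normal optic lobes, fell by 0.74 (adjusted p = 3.65e-05) and fliI, a gelsolin-family actin-binding protein, fell by 0.53 (adjusted p = 0.00176). These 3 genes stand close together at the early peak at 21.34 Mb. DIP1, a double-stranded RNA binding protein whose gene ends just before flamenco, fell by 0.31 in the authors' deposited table (adjusted p = 0.00404). The neuronal genes were not called: shakB, an innexin, was at 1.23 (adjusted p = 0.565), and the entry of stnA and stnB, which share a transcript and serve synaptic vesicles, was at -0.36 (adjusted p = 0.885), both in the authors' deposited male table. The gene run had no entry of its own in either table, and Hers lies outside the span.

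From 22 Mb on, 19 entries were called in males, all of them lower. On the block's edge, in windows that were still late, the authors' deposited male table put wap, a WD-repeat protein gene, at -0.52 (adjusted p = 0.000203), the ubiquitin protease gene Usp2 at -0.34, CG14618 at -0.76 and CG12576 at -0.38. Just beyond the step, in windows near 0 in HWT males, CG17600 stood at -0.57, the kinase gene S6kII at -0.47 and CG17598 at -0.66 in the authors' deposited table; these 3 genes overlap, and the sources used here do not say whether reads were counted by strand. Farther on, the authors' deposited table listed Cda4, a chitin deacetylase gene, at -0.61, fog, whose secreted product drives cell shape change in gastrulation, at -0.39 (adjusted p = 0.0170), and CG42346, which overlaps fog, at -0.50. Toward the last peak stood Coa7, a cytochrome oxidase assembly factor gene, at -0.51, CG17163 at -0.87, CG17168 at -0.40, CG17162 at -0.55, su(f), which acts in forming messenger RNA 3' ends, at -0.44 (adjusted p = 0.00378), and ATbp at -0.58, all in the authors' deposited male table. Their range, -0.34 to -1.26 with lncRNA:CR43493, lies within that of the called entries before 22 Mb.

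Neither flamenco nor the ribosomal end had a called entry. In the authors' deposited male table, 16 entries lay in lncRNA:flam (X:21631891-21790731) with a median of -1.03, 14 of them below 0 and 0 called (lowest adjusted p = 0.0794; 2 had an unadjusted p under 0.05). In that of females 17 had a median of -0.02, from -1.17 to 2.82, with 0 called and 1 at an unadjusted p under 0.05. From 23.2 Mb on, over ribosomal RNA genes and pseudogenes, all 10 male entries were below 0 (median -1.30) and 8 of 9 female ones were (median -0.98), with 0 called in either of the authors' deposited tables and 0 at an unadjusted p under 0.05. Both stretches are repeated sequence, so their reads cannot be placed with certainty, and the libraries had been depleted of ribosomal RNA; the part of either in these values was not tested.

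In females the RNA of the span changed little. The authors' deposited table of females called 1 of 138 entries lower and 1 higher (0.725% each), against 0.613% and 0.362% over the whole table, and 15 entries had an unadjusted p under 0.05. Abca3 (X:21292308-21306699), an ABC transporter gene, fell by 1.73 (adjusted p = 0.00757), and CG32512 (X:21062277-21067540) rose by 0.67 (adjusted p = 0.0110), both in the authors' deposited female table. In males Abca3 was at -0.59 (adjusted p = 0.231) and CG32512 at -0.12 (adjusted p = 0.663), from the authors' deposited table. The female median was -0.04, against -0.003 over all entries, and the list genes fliI (-0.21), sol (-0.17), slgA (0.16), DIP1 (0.04), wap (-0.16), fog (0.30), su(f) (-0.10), shakB (0.47) and stnA with stnB (-0.54) were not called in the authors' deposited table.

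The male and female effects differed for 30 of the 99 genes of the span that both tables name once. The difference of the log2 fold changes, males minus females, was put to a z test with standard errors recovered from the deposited p-values and Benjamini-Hochberg adjustment over 8822 genes. It called all 30 lower in males (30.3%), against 5.71% lower over all genes and 25.6% over the rest of the X; 0 were higher. The median difference was -0.48 in the span and -0.43 over the rest of the X, and 83 of the 99 genes lay below 0. The lowest called differences were obst-A at -1.22 ± 0.22 (SE; adjusted p = 1.83e-05), with -1.30 in males and -0.08 in females, and Phf7 at -1.09 ± 0.36 (SE; adjusted p = 0.0348). For slgA it was -1.02 ± 0.19 (SE; adjusted p = 2.76e-05), with -0.86 in males and 0.16 in females. From 22 Mb on, 7 of 27 genes were called, namely Usp2, CG12576, CG17600, CG17598, fog, CG42346 and CG17162. Of these, fog had -0.39 in males and 0.30 in females, a difference of -0.69 ± 0.16 (SE; adjusted p = 0.00193). Among the 30, CG32512 (X:21062277-21067540) differed in having its larger change in females, with -0.12 in males and 0.67 in females.

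**Figure D5:**
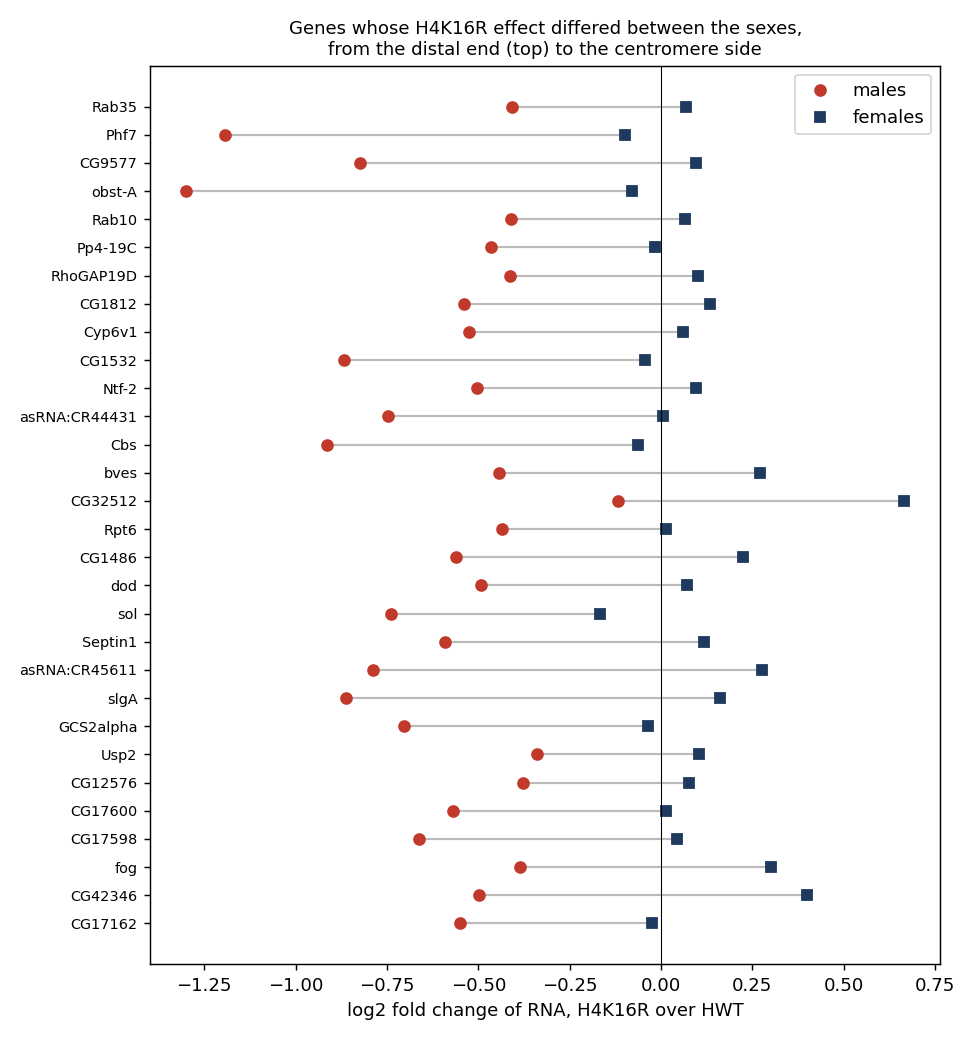
Log2 fold change of RNA, H4K16R over HWT, in males (circles) and females (squares) for the 30 genes of the span whose effect differed between the sexes at an adjusted p under 0.05, ordered from the distal end (top) to the centromere side. All 30 are lower in males, and for 29 of them the male value is -0.34 or less while the female values lie between -0.17 and 0.40; CG32512 has its larger value in females.

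RNA and timing could be set side by side outside most of the late block only. Named male entries in windows at or above 0 in HWT males had a median of -0.54 with 42 of 66 lower, those between 0 and -0.1 a median of -0.41 with 12 of 23 lower, and those at -0.1 or below a median of -0.48 with 8 of 23 lower, from the authors' deposited table. Neither table had an entry between the last one in flamenco and CG14621 at 22444227, so most of the block, in which timing differed most, could not be compared with RNA. At fog, timing was -0.153 in H4K16R males against -0.0167 in HWT males; at su(f) it was -0.0862 against -0.0149; at wap it was -0.349 against -0.427, with RNA lower at all 3 genes.

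Markers of the fat body were also lower in the male comparison. In the authors' deposited male table, 6 of 7 fat body markers were lower (median -2.62) and 0 of 5 salivary gland glue genes were called (median -3.04). Of 5 hemocyte markers 0 were called (median -0.85, from -3.49 to 0.30), and of 5 adult muscle precursor markers 0 were called (median -0.05), while 2 of 10 wing disc markers were lower (median -0.09, from -0.33 to 0.10). In that of females 0 of the 7 and 0 of the 5 were called (medians -0.88 and -0.99), and 0 of the 10 wing disc markers were (median 0.07). All 10 wing disc markers were listed in both tables, which give no levels. The part of these tissues in the fold changes of obst-A, GstT3, CG1503 and the other genes above was not tested. Fewer cells of a type and less RNA per cell cannot be told apart in bulk discs.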

How the data were processed

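Repli-seq and RNA-seq of wing discs were read from the tables that the authors deposited. The timing profiles hold S/G1 values on 100 kb windows every 10 kb on dm6, or, for yw, on 10 kb rows. No header names their scale. The values that the authors deposited were read as log2, except those of the female H4K16R table, which lie around 1, were read as a linear ratio deposited without a log, and were turned into log2 here. Base 2 was inferred: the HWT values of that table then had an SD of 0.0938 over all windows, against 0.0999 in the H3K9R table (0.0650 with the natural log). The yw rows lined up best with window midpoints (correlation 0.912) and were averaged within 10 kb of each. The RNA tables hold the authors' log2 fold change and adjusted p-value per interval per the file headers, which name no log base (read as 2); the submitters' processing notes name edgeR, and also TopHat, Cufflinks 2.2.1, Bowtie2 2.3.2, SAMtools 1.6, bedtools and limma. No source used here names the numerator of the fold change, which was read as H4K16R over HWT. The tables analysed here hold no counts and no value per library, so depth is unknown, no mean ± SD can be given, and RNA p-values rest on replicates that the labels do not tie to separate crosses.

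Entries took the name of a RefSeq Release 6 gene that they overlapped reciprocally by more than 0.9: 112 of 143 male and 104 of 138 female entries in the span. In each sex 63 of them overlapped another entry. Unadjusted p-values were recovered by inverting the Benjamini-Hochberg step; with ties they are upper bounds. The z test and the border search were tested on simulated data. Named genes were the 10 highest and 10 lowest called entries per sex, every called entry from 22 Mb on and 13 listed genes. The planned tests took the deposited units as they are. The members, the lists and the limits of the stretches were chosen with earlier results of these data known. Python 3.11.15, pandas 2.3.3, NumPy 2.4.6 and SciPy 1.17.1 were used. No sequence is printed.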

Additional observations from a re-analysis of the deposited data

Results flagged for a closer look

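The RNA effect of H4K16R differed between the sexes by the z test for 30 of 99 genes of the proximal X. Of the genes that the text names, the male minus female log2 fold changes were -1.22 for obst-A, -1.09 for Phf7, -1.02 for slgA, -0.90 for CG42346, -0.85 for Cbs, -0.78 for CG32512, -0.71 for CG17598, -0.69 for fog, -0.58 for CG17600, -0.57 for sol, -0.53 for CG17162, -0.45 for CG12576 and -0.44 for Usp2.

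The timing effect of H4K16R from 22 to 22.5 Mb had opposite signs in the sexes over the 25 windows that all tables list, with a median difference from HWT of 0.0784 in males and -0.0956 in females (profile 1). Of these windows 20 lay above 0 in males and 7 in females. The difference was not tested, since each group has 1 deposited value per window, and the male table leaves out the other windows of that bin. Opposite signs were not particular to the proximal X: the median differences at the centromere ends of 2L, 2R, 3L and 3R had them too. No group had 4 or more values per window or gene, so no single sample could be singled out.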

How the results depend on the processing

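Of 84 alternatives, 47 kept their value within 1.5 times, or a border within 0.1 Mb. No paired analysis was possible because the deposited tables hold no value per library; for the same reason no replicate could be left out. For RNA, a minimum log2 fold change of 0.5 gave 30.1% lower entries in males, and an adjusted p under 0.01 gave 0.725% called in females and 14.1% of genes in the sex difference. A shift of at least 0.2 left 0.310% earlier and 0 later windows for H4K16R males, 0 earlier and 1.94% later for H4K16R females, and 1.11% earlier and 0 later for H3K9R. With every 10th window, H4K16R males had 6.25% earlier, H4K16R females 0 earlier and H3K9R 8.57% later windows. Centring gave 2.50% later for H3K9R, 0.556% earlier for HWT minus yw and 2.17% earlier for males minus females in H4K16R. The other female HWT profile gave 21.9% later (6.85% over all arms) and 2.22% earlier windows (0.505%) for H4K16R. It gave 1.11% later for H3K9R (0.913% over all arms) and 0 earlier for HWT males minus females. Alternatives chosen after the data were seen were that swap for the mutants, yw in place of HWT (1.11% earlier for H4K16R, 1.67% later for H3K9R), the windows of the male table (0 earlier for H4K16R females, 10.2% earlier for H3K9R, 0 earlier for HWT minus yw) and full-length windows (0.286% earlier for H4K16R females). The cause of these moves was not tested.

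Below the profile's own median, the border was at 21.1 Mb in H4K16R males, 21.34 Mb in H4K16R females, 21.39 Mb in H3K9R females, and 22.32 and 21.6 Mb in HWT females. By the largest fall it was at 23.22, 23.21 and 23.2 Mb in H4K16R males, H4K16R females and H3K9R females, and at 21.7 Mb in HWT males and 21.77 and 21.69 Mb in HWT females. That measure picks the largest of several falls, so its position can change without a moved border. With every 10th window it was at 21.2 Mb in H4K16R females. A shift near 0.1 is within what both female HWT profiles differ by inside the late block.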
